A study of Mus musculus with 2 samples.

Results

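The complement genes examined here are 9 genes that cells of connective tissue are known to express, found by gene symbol among the 26082 genes of both deposited tables. They are C1ra, C1s1, C1rl and C2, which encode proteases of the classical pathway or a relative of them, C3 and C4b, which encode the thioester proteins, Cfb, which encodes the protease of the alternative pathway, and the regulators Serping1 and Cd55. The cells were primary FAPs, the fibro-adipogenic progenitors that lie between the fibers of skeletal muscle and can turn into adipocytes, sorted from the hind-limb muscle of C57BL/6 mice. The labels give their genotype as wild type. The FAPs of one library were transfected with TGFBR3 overexpressing plasmids and those of the other with the vector as control. Both were under adipogenic induction, with insulin at 10 μg/ml, dexamethasone at 0.25 μM and IBMX at 0.5 mM in a medium that held FBS at 20%. RNA was selected for poly(A) tails and sequenced as paired reads of 150 nt, with 1 library per condition. How many animals gave the cells of a library is not given in the labels, plasmid transfection itself is shared by both libraries, and neither library comes from cells that were left untransfected.

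Complement is a cascade of plasma proteins that marks cells and microbes for removal. In the classical pathway the protease C1s, once activated by C1r, cuts C4 and C2, whose fragments form an enzyme that cuts C3. In the alternative pathway factor B, the product of Cfb, takes the place of C2 and forms the enzyme with C3 itself. The liver makes most of the circulating proteins, while fibroblasts and other stromal cells are known to secrete many of them locally. Serping1 encodes the C1 inhibitor, which blocks C1r and C1s, and Cd55 encodes decay-accelerating factor, a membrane protein that takes apart the enzymes that cut C3.

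With a single library per condition, nothing below was checked against replicates and p-values are not given. The total of the counts was 62321027 for the library labelled TGFBR3 OE and 83779203 for the library labelled control. Levels are given as FPKM, the fragments of a gene scaled by its length and by a library total, and changes as the log2 ratio of (FPKM + 1), with the library labelled TGFBR3 OE in the numerator, a scale that understates the change of low genes. The 95% confidence intervals are exact Clopper-Pearson intervals of how a gene's counts divide between the libraries, on that scale, and those of the levels are exact Poisson intervals. Both cover counting error only, so the intervals compare these libraries and not the conditions. Copies of a molecule may have been counted as separate reads, which was not checked. The check of the overexpressed gene showed little difference between the libraries. Tgfbr3 stood at an FPKM of 36.9 in the library labelled TGFBR3 OE and 35.1 in the library labelled control, from 16372 and 21245 counts, a log2 ratio of 0.07 (95% CI 0.04 to 0.10). Every direction below is therefore that of the labels. The paper also measured TGFBR3 by real-time PCR in FAPs given the plasmid or the vector, which was not re-examined here. A gene is called expressed here where its FPKM averaged over the libraries was 1 or more, and the median log2 ratio of the 11213 expressed genes was 0.14. Centred values have 0.13 taken away, the median ratio over genes that reached an FPKM of 1 in each library.

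The cell type was checked against marker genes. Of 10 FAP markers, 9 reached an FPKM of 1 in each library, among them Pdgfra at 30.5 and 32.6 in the libraries labelled TGFBR3 OE and control, while Lum was near 0, with 45 and 8 counts. Of 11 macrophage markers, 2 reached this level. The macrophage genes Adgre1, Tyrobp and Fcer1g were at 0 counts in both libraries, Ptprc, the pan-leukocyte marker, was at 0 and 4, and the list summed to an FPKM of 16.0 and 19.0, mostly from Lyz2. Apoa1 was the single hepatocyte marker analysed here of 5, with 6 and 0 counts. In bulk RNA, fewer cells of a type and less RNA per cell cannot be told apart.

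All 9 complement genes were expressed, and their levels spread over more than 2 orders of magnitude. Serping1 was the most abundant in each library, at an FPKM of 384 in the library labelled TGFBR3 OE and 350 in the library labelled control. Next in the library labelled control came C3 at 178, C1s1 at 153, Cfb at 69.0 and C1ra at 54.5, then C1rl at 12.2, C4b at 10.2, C2 at 6.34 and Cd55 at 2.30. In the library labelled TGFBR3 OE the order after Serping1 was Cfb at 158, C1s1 at 140, C3 at 101, C1ra at 52.4, C4b at 28.1, C2 at 18.4, C1rl at 16.0 and Cd55 at 1.62. No neighbors in either order had overlapping Poisson intervals, although the spread between cultures was not measured. Between the libraries Cfb and C3 traded places and C1rl stood below C4b and C2, while both ends of the order stayed as they were. Serping1, Cfb, C1s1 and C3 made up 87.1% of the summed FPKM of the 9 genes in the library labelled TGFBR3 OE and 89.8% in the library labelled control. That sum was 900 and 836. The RNA for the inhibitor of the C1 proteases was thus present at 2.74 and 2.28 times the level of C1s1 RNA, on the FPKM scale.

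**Figure D1:**
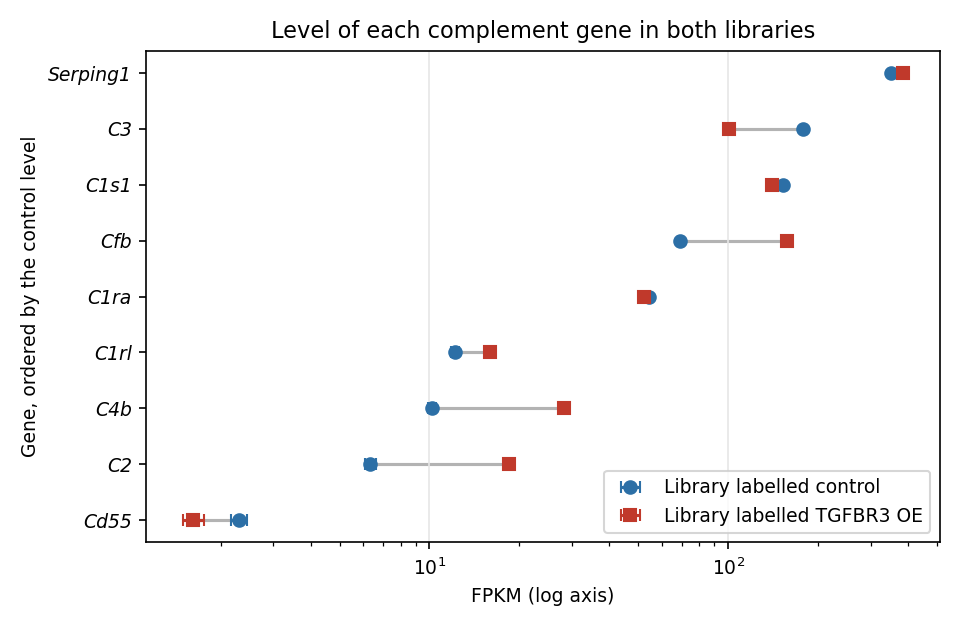
Level of each of the 9 complement genes in FPKM on a log axis, with genes in the order of the library labelled control. Circles are the library labelled control, squares the library labelled TGFBR3 OE, and bars the 95% Poisson intervals of the counts (1 library per condition), with Serping1 highest in both and the widest gaps in C2, C4b and Cfb.

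In the library labelled TGFBR3 OE, C2, C4b and Cfb were higher by 2-fold or more, which is 3 of the 9 genes (33.3%). Of all 11213 expressed genes, 3.14% were higher by as much. None of the 9 was lower by 2-fold or more, against 1.03% of the expressed genes. The median log2 ratio of the 9 was 0.13, beside 0.14 for the expressed genes, so the shift of these 3 genes was not one of the whole list. Above 0 lay 5 of the 9 ratios, beside 63.1% of the expressed genes. The genes had been chosen with earlier results of these data known, so the counts describe the list.

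C2, the protease part of the classical enzyme that cuts C3, had the largest ratio of the 9. C2 (ENSMUSG00000024371) occupies bases 34862604 to 34898265 of chromosome 17 (mm10, minus strand). It had 4836 counts in the library labelled TGFBR3 OE and 2271 in the library labelled control, or FPKM values of 18.4 (95% CI 17.9 to 18.9) and 6.34 (95% CI 6.08 to 6.61). The libraries were thus far apart relative to counting error. The plain ratio of FPKM was 2.90-fold, the log2 ratio with the added 1 was 1.40 (95% CI 1.34 to 1.47), and centring gave 1.28. Among the expressed genes, 155 had a higher ratio.

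C4b, which encodes the C4 protein that C1s cuts, stood close to C2. C4b (ENSMUSG00000073418, chromosome 17, 34728380 to 34743882, minus strand) had 10868 and 5357 counts in the libraries labelled TGFBR3 OE and control, or FPKM values of 28.1 (95% CI 27.6 to 28.7) and 10.2 (95% CI 9.91 to 10.5). The ratio was 2.76-fold, or 1.38 on the log2 scale with the added 1 (95% CI 1.34 to 1.43), and 1.26 when centred. C4b RNA was at 1.53 times the level of C2 RNA in the library labelled TGFBR3 OE and at 1.61 times in the other, so the partners of the classical enzyme kept nearly the same proportion in FPKM.

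The mouse has a near-identical copy of this gene, C4a, known as the gene of the sex-limited protein, 65209 bases away on the same strand. The annotation used here lists C4a as a processed transcript and not as protein-coding. Of the 31-base words of C4b transcripts, 48.3% also occur in C4a. Both genes can be told apart at the bases where the copies differ. A stretch with 4 such bases, picked for its many differences, is shown here as an example. It was read from mm10 inside a single exon of each gene (GENCODE release M21), at chr17:34740395-34740424 for C4b and chr17:34819914-34819943 for C4a, both on the minus strand, and the capitals mark the bases that differ.
C4b: caggctctgaagcctcCaacgttCCtgtTa
C4a: caggctctgaagcctcTaacgttATtgtCa
C4a had 230 and 139 counts, an FPKM of 0.540 and 0.240. A read pair that covers no base where the copies differ could have gone to either copy or to none. The share of shared words is not the share of such reads, which was not measured, and how they were counted is not given in the sources used here. The counts listed for C4a were a small part of those listed for C4b in each library.

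Cfb was the most abundant of the 3 genes. Cfb (ENSMUSG00000090231, chromosome 17, 34856374 to 34862518, minus strand) had 30369 and 18012 counts in the libraries labelled TGFBR3 OE and control, or FPKM values of 158 (95% CI 157 to 160) and 69.0 (95% CI 68.0 to 70.0). The ratio was 2.30-fold, with a log2 value of 1.19 (95% CI 1.16 to 1.21) and a centred value of 1.06. For Cfb, C2 and C4b alike the counting interval lay wholly past 2-fold. GENCODE also annotates Gm20547 on the same strand, across Cfb and part of C2, and this gene was not analysed here. It holds 75.5% of the 31-base words of Cfb and 40.2% of those of C2, and without it 0% and 4.22% of their words occur in another gene. How reads that lie in both Gm20547 and Cfb or C2 were counted is not given in the sources used here. The levels of Cfb and C2, and the proportions that use them, carry this limit.

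**Figure D2:**
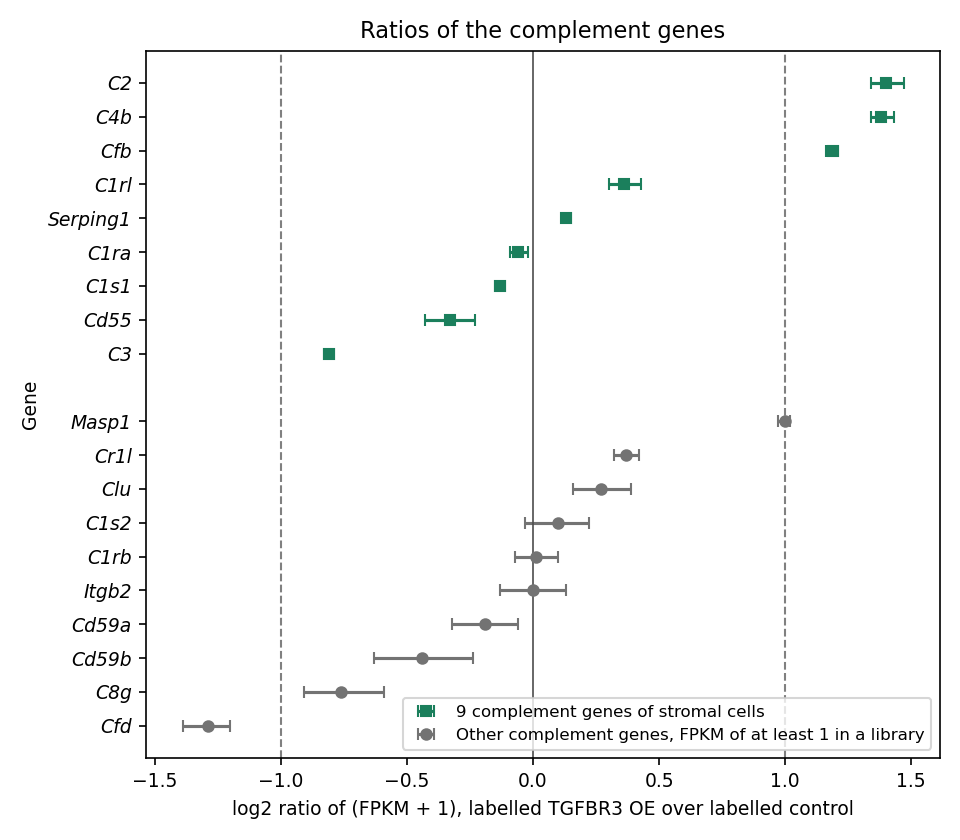
The log2 ratio of (FPKM + 1), with the library labelled TGFBR3 OE over that labelled control, for the 9 complement genes (squares) and the 10 other complement genes that reached an FPKM of 1 in a library (circles). Bars are 95% intervals for counting error, dashed lines mark 2-fold, and C2, C4b and Cfb lie past it on the right while Cfd lies past it on the left.

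All 3 genes lie in the class III region of the major histocompatibility complex, a gene-dense stretch between the class I and class II genes. From the start of C4b to the end of C2 the region spans 170 kb and holds 14 genes of the deposited tables. Of these, 8 were expressed, and the 5 that are not complement genes were all lower in the library labelled TGFBR3 OE, with log2 ratios from −0.44 to −0.20. Among all expressed genes, 63.1% had a ratio above 0. Nelfe, a subunit of the negative elongation factor, ends 2 bases from Cfb on the opposite strand and stood at an FPKM of 13.1 and 16.1 (log2 ratio −0.28). Skiv2l, a helicase of the RNA-degrading exosome pathway, stood at 13.3 and 16.4 (−0.28), and Dxo, an RNA decapping enzyme, at 6.28 and 8.85 (−0.44). Stk19 had FPKM values of 4.54 and 5.61 (−0.25). Zbtb12, which lies on the opposite strand within the span of C2, had 3.60 and 4.27 (−0.20). Just outside, Ehmt2, a histone methyltransferase that starts 204 bases from C2, was at 35.0 and 36.0 (−0.04), and Tnxb, which encodes the matrix protein tenascin-X and lies beyond C4b, was at 4.33 and 5.84 (−0.36). The larger ratios of the region were thus those of the complement genes, with the expressed genes between and beside them at or below the median gene. Cfb and C2 are separated by 85 bases.

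**Figure D3:**
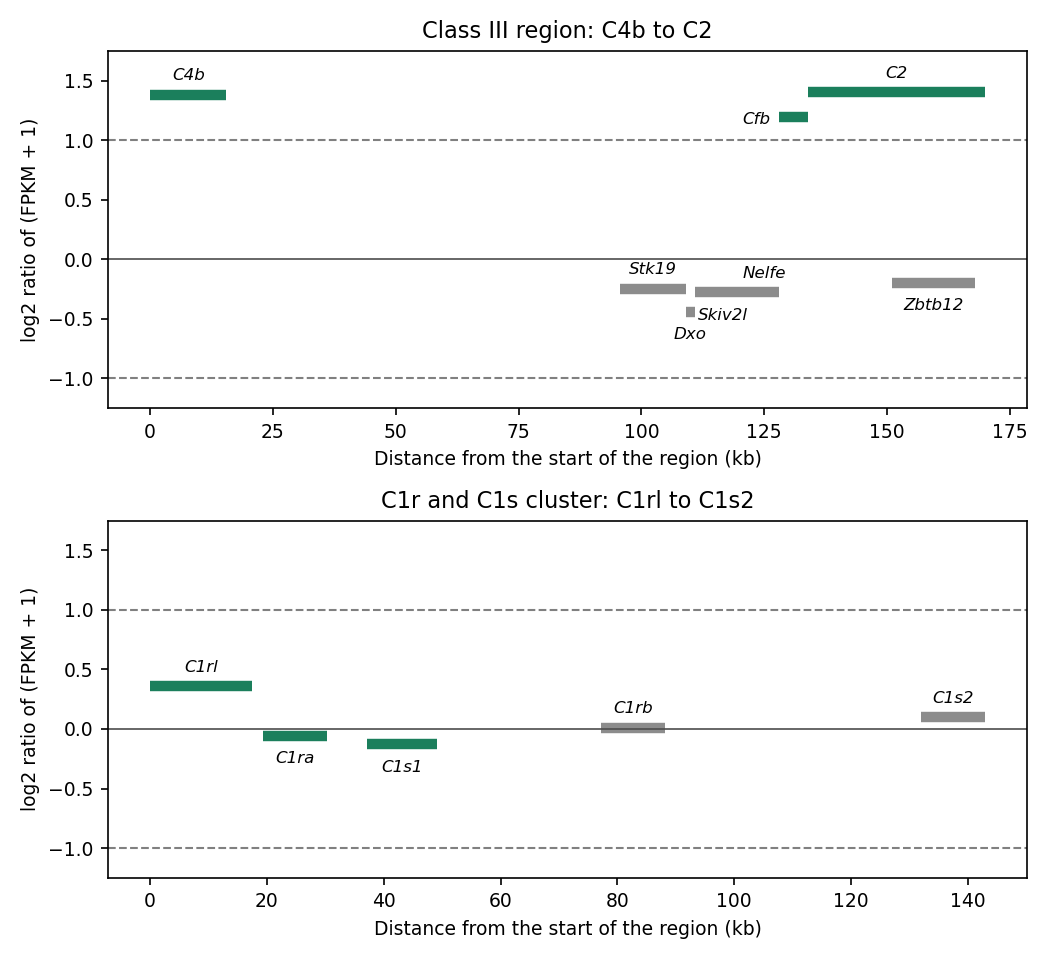
Log2 ratio of (FPKM + 1), TGFBR3 OE over control by label, against distance in kb along the class III region (top) and the C1r and C1s cluster (bottom), for expressed genes. Each bar spans a gene, green for the 9 complement genes and grey for others, with C4b, Cfb and C2 above the dashed 2-fold line and the 5 grey genes of the top panel between −0.44 and −0.20.

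C3, the protein on which the pathways meet, differed in the other direction. C3 (ENSMUSG00000024164, chromosome 17, 57203970 to 57228136, minus strand) lies on the same chromosome as the class III genes but far from them. It had 35301 counts in the library labelled TGFBR3 OE and 84594 in the library labelled control, or FPKM values of 101 (95% CI 100 to 102) and 178 (95% CI 177 to 179). The library labelled control was 1.76-fold higher, a log2 ratio of −0.81 (95% CI −0.83 to −0.79) or −0.94 when centred. A lower ratio was found in 220 of the expressed genes. C3 was therefore short of 2-fold in the direction opposite to C2, C4b and Cfb. Its neighbors Gpr108, at FPKM 26.5 and 24.9 (log2 ratio 0.09), and Trip10, at 28.9 and 26.1 (0.14), lay near the median gene. No 31-base word of C3 transcripts occurs in the annotated transcripts of another gene. Near matches and sequence outside annotated transcripts were not searched.

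The proportions among the components differed accordingly. Cfb RNA was at 1.57 times the level of C3 RNA in the library labelled TGFBR3 OE and at 0.388 times in the library labelled control, on the FPKM scale. C4b RNA was at 0.278 and 0.0572 times the level of C3 RNA, and C2 RNA at 0.132 and 0.0413 times that of C1s1. Of the summed FPKM of the 9 genes, C3 made up 11.2% and 21.3%, and Cfb 17.6% and 8.25%. The genes of the thioester proteins C3 and C4b, which are related in sequence and structure, thus had ratios of opposite sign.

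Promoters of 5 of the 9 genes (C3, C1s1, C1ra, Cd55 and C1rl) were matched in RefSeq, build GRCm38.p6, and those of C4b, C2, Cfb and Serping1 were not analysed here. The 250 bases before each start were searched on both strands for the motif GAS (TTCNNNGAA), the interferon motif ISRE, the C/EBP motif (TTGCNNAA) and the NF-κB motif. These motifs belong to factors that are known to act on complement promoters. C3, C1s1 and C1rl each held 1 match, to the C/EBP motif in every case, and C1ra and Cd55 held a match to none of the 4 motifs. The C1s1 and C1rl matches read TTGCNNAA on the strand opposite to the gene. The C/EBP motif occurs in 9.56% of all 32851 promoter windows, the GAS motif in 7.02%, the ISRE in 2.98% and the NF-κB motif in 7.25%. The matches are shown in 30 bases each, on the strand of the gene, with the motif in capitals. They lie at chr17:57228163-57228192 (C3, minus strand), chr6:124542580-124542609 (C1s1, minus strand, in 1 of its 2 windows) and chr6:124492863-124492892 (C1rl, plus strand).
C3: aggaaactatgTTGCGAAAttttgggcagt
C1s1: agagagaaTTAGGCAAtctcaaaattcccc
C1rl: gtccaggTTTTGCAAgactatctcagctcc
The capitals begin 45 bases before the start of C3, 242 before that of C1s1 and 243 before that of C1rl. A match of letters is a description of the window, and whether any factor bound there was not measured.

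Of the 8 transcription factors on the list of those known to act on complement promoters, all were expressed. The ratio was above 0 for 5 and below for 3, beside 63.1% above 0 among all expressed genes. Irf1, a factor that interferon induces, was at an FPKM of 18.0 in the library labelled TGFBR3 OE and 10.6 in the library labelled control (log2 ratio 0.71). The C/EBP factors stood on the other side. Cebpb, known to act on the C3 promoter in the acute phase, was at an FPKM of 89.4 and 160 (−0.83), and Cebpd was at 50.7 and 92.8 (−0.86). Rela, the p65 subunit of NF-κB, was at 36.5 and 36.4 (0.01), and Stat3, which carries interleukin-6 signals, at 27.9 and 24.4 (0.19). C2, C4b and Cfb were higher in the library with the higher Irf1. C3 was lower in the library with the lower Cebpb and Cebpd. C1s1 and C1rl, which also held a C/EBP match, had log2 ratios of −0.13 and 0.36. The part of the listed factors in the ratios was not tested. With 2 libraries, any gene that differs moves with any other.

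The proteases that start the classical pathway differed little between the libraries. C1ra (ENSMUSG00000055172, chromosome 6, 124512405 to 124523443, plus strand), which encodes C1r, had FPKM values of 52.4 (95% CI 51.4 to 53.4) and 54.5 (95% CI 53.6 to 55.3) from 10593 and 15004 counts in the libraries labelled TGFBR3 OE and control. The ratio on the log2 scale stood at −0.06 (95% CI −0.09 to −0.02), at −0.18 when centred and 0.02 when FPKM values were rescaled to a common sum, so that its direction depended on the scaling. C1s1 (ENSMUSG00000038521, chromosome 6, 124530345 to 124542359, minus strand), which encodes C1s, had FPKM values of 140 (95% CI 138 to 141) and 153 (95% CI 152 to 155) from 29693 and 44355 counts. The difference came to −0.13 on the log2 scale (95% CI −0.15 to −0.11), and −0.26 when centred. C1s1 RNA stood at 2.67 and 2.82 times the level of C1ra RNA, so that this proportion differed little between the libraries.

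C1rl, a relative of C1r with a less known role, was higher in the library labelled TGFBR3 OE but short of 2-fold. C1rl (ENSMUSG00000038527, chromosome 6, 124493113 to 124510643, plus strand) had 3261 and 3396 counts, or FPKM values of 16.0 (95% CI 15.4 to 16.5) and 12.2 (95% CI 11.8 to 12.6). The ratio was 1.31-fold, with a log2 value of 0.36 (95% CI 0.30 to 0.43) and a centred value of 0.24. C1rl, C1ra and C1s1 lie side by side, with gaps of 1761 and 6901 bases, in a cluster of 143 kb that also holds the copies C1rb and C1s2. C1rb was at an FPKM of 9.71 and 9.62 (log2 ratio 0.01, 95% CI −0.07 to 0.10) and C1s2 at 2.68 and 2.44 (0.10, 95% CI −0.03 to 0.22). Both intervals, which cover counting error only, included 0 before centring. Of the 31-base words of C1ra, 59.6% occur in any other gene and 56.9% in C1rb. For C1s1 these shares were 47.6% in any other gene and 33.5% in C1s2, whereas 1.28% of the words of C1rl occur in any other gene. C1rb shares 70.0% of its words with C1ra, and C1s2 40.4% with C1s1. How many reads of C1ra and C1s1 could have come from the copies was not measured. The antisense gene Gm16567, which runs over C1s1 on the other strand, had 9 and 55 counts. The library kit marks strand by the labels, while whether the counting used it is not given in the sources used here.

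The regulators Serping1 and Cd55 stood at opposite ends of the order of levels. Serping1 (ENSMUSG00000023224, chromosome 2, 84765387 to 84775444, minus strand) had 60526 counts in the library labelled TGFBR3 OE and 75248 in the library labelled control, or FPKM values of 384 (95% CI 381 to 387) and 350 (95% CI 348 to 353). The ratio was 1.10-fold, with a log2 value of 0.13 (95% CI 0.12 to 0.15). Centred, it was 0.00, so that Serping1 stood where the median gene stood. No word of 31 bases in Serping1 occurs in another gene. Its neighbor Ube2l6, an enzyme that attaches the interferon-induced modifier ISG15 and lies 23384 bases away on the opposite strand, was at an FPKM of 111 and 51.5 (log2 ratio 1.09).

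Cd55 was the least abundant of the 9. Cd55 (ENSMUSG00000026399, chromosome 1, 130439027 to 130462744, minus strand) had 533 and 1033 counts in the libraries labelled TGFBR3 OE and control, or FPKM values of 1.62 (95% CI 1.49 to 1.76) and 2.30 (95% CI 2.16 to 2.44). The library labelled control was 1.42-fold higher. The log2 ratio was −0.33 with the added 1 (95% CI −0.43 to −0.23), −0.51 without it and −0.46 when centred. Its exons have the lowest GC content of the 9 genes, 41.9%, and with the trend of the ratios over GC content removed the value was −0.77. The copy Cd55b, with which it shares 11.2% of its words, had 18 and 0 counts.

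Other genes of the cascade were mostly low in these cells. Of 46 further complement genes, 38 were in the deposited tables and 8 were not analysed here, and 28 of the 38 stayed under an FPKM of 1 in each library. Of the 10 others, 5 had a ratio above 0, 4 below and 1 at 0.00, beside 63.1% of all expressed genes above 0. None was higher by 2-fold or more and 1 was lower by as much, beside 3.14% and 1.03% of the expressed genes. Their median log2 ratio was 0.01, beside 0.14 for the expressed genes. Masp1, a protease of the lectin pathway, was at an FPKM of 51.1 in the library labelled TGFBR3 OE and 25.1 in the library labelled control, from 34063 and 22780 counts. With the added 1 its log2 ratio was just under 2-fold (95% CI 0.97 to 1.02), without it 1.03 and when centred 0.87. Cfd, the protease that activates factor B and a product of adipocytes, was at 15.3 and 39.0, from 960 and 3327 counts, with a ratio of −1.29 (95% CI −1.39 to −1.20). The substrate Cfb and its activating protease Cfd thus had ratios of opposite sign. C8g, a chain of the terminal component C8, was at 0.260 and 1.14 (27 and 159 counts, log2 ratio −0.76).

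The membrane regulators outside the 9 genes were at low levels. Cr1l, which encodes the rodent regulator Crry, stood at an FPKM of 5.98 in the library labelled TGFBR3 OE and 4.39 in the library labelled control (log2 ratio 0.37). Cd59a and Cd59b, which encode blockers of the membrane attack complex, were at 4.29 and 5.03 (−0.19) and at 1.30 and 2.11 (−0.44). The fluid-phase regulator clusterin, encoded by Clu, was at 2.26 and 1.70 (0.27). The recognition part of C1 was near 0, with 0 and 8 counts of C1qa, 20 and 0 of C1qb and 7 and 4 of C1qc. C1q is known as a product of macrophages, and these cells thus held RNA for the C1 proteases with little for C1q. The receptors of the fragments of C3 and C5 were also low, with 10 and 9 counts of C3ar1 and 19 and 27 of C5ar1.

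Other lists moved between the same libraries. The adipocyte markers summed to an FPKM of 35.7 in the library labelled TGFBR3 OE and 69.9 in the library labelled control. Cfd, counted both here and among the complement genes, made up 15.3 and 39.0 of these sums. Fabp4 was at 12.6 and 13.9 (log2 ratio −0.14). All 5 adipocyte markers that reached an FPKM of 1 were lower, whereas 63.1% of all expressed genes had a ratio above 0. Of the 5, 2 (Cfd and Adipoq) were lower by 2-fold or more, beside 1.03% of the expressed genes. Adipoq, which encodes adiponectin, was at 5.69 and 13.0 (log2 ratio −1.07). The paper reports the opposite direction for adipogenesis with TGFBR3 overexpression, from pathway analysis of RNA, Oil Red O staining and PPARγ protein. Those measures were not re-examined here. The 10 FAP markers summed to 2107 and 2530, with 7 of the 9 expressed genes lower. Of the 9, 2 (Col3a1 and Dpt) were lower by 2-fold or more, beside 1.03% of the expressed genes. Col3a1 was at 95.8 and 199 (log2 ratio −1.05) and Dpt at 3.48 and 8.72 (−1.12). Dcn was higher, at 18.2 and 16.4 (0.14). Ly6a, the gene of the surface marker Sca-1 and one that interferon induces, was also higher, at 1013 and 706 (0.52). The markers of T and NK cells in the tables summed to 0.190 and 0.110, with Cd4 and Nkg7 at 0 counts in both, muscle cell markers to 1.16 and 0.810 and endothelial markers to 2.17 and 2.03. The part of the differing adipocyte and FAP marker levels in the ratios of C3, Cfd and the other complement genes was not tested.

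The direction of the ratio did not depend on the scaling for 7 of the 9 genes. Over 7 other scalings the log2 ratio ranged from 1.28 to 1.56 for C2, from 1.17 to 1.51 for C4b and from 1.06 to 1.27 for Cfb, past 2-fold each time. It ranged from −0.94 to −0.74 for C3, from −0.77 to −0.38 for Cd55, from −0.36 to −0.06 for C1s1 and from 0.24 to 0.45 for C1rl. C1ra changed sign under 1 of the 7 and Serping1 reached 0.00 when centred.

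**Figure D4:**
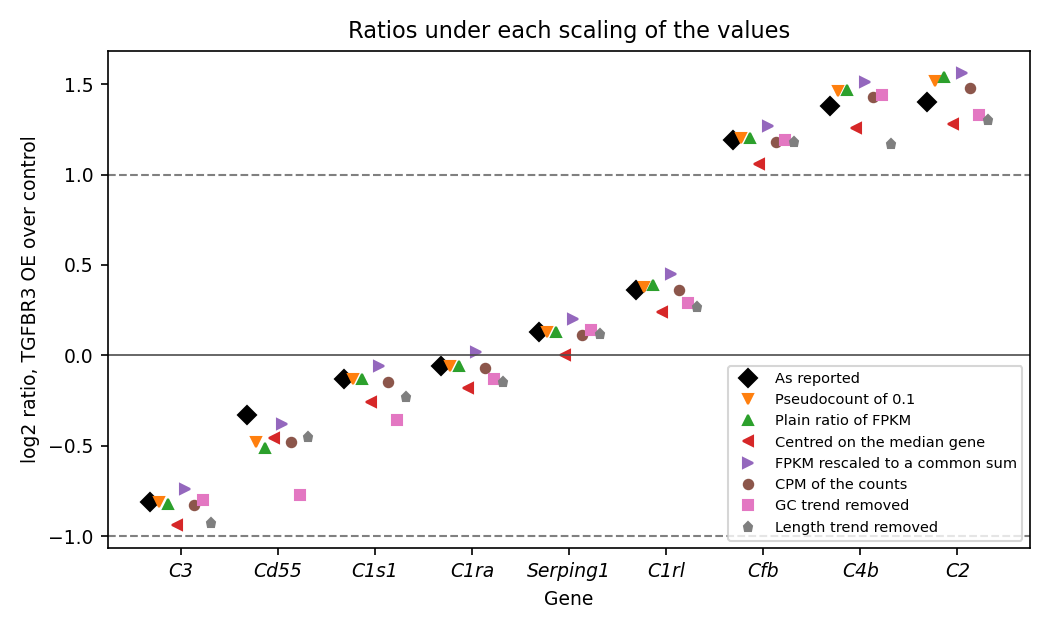
Log2 ratio of each of the 9 complement genes, library labelled TGFBR3 OE over library labelled control, as reported (black diamonds) and under 7 other scalings of the values (coloured marks). Cfb, C4b and C2 stay above the dashed 2-fold line in each, C3 stays between −0.94 and −0.74, and C1ra and Serping1 lie around 0.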

How the data were processed

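RNA of transfected primary mouse FAPs was measured in 2 libraries, 1 per condition. The authors deposited raw counts per gene and FPKM, counts scaled by gene length and a library total. The submitters' processing notes name cutadapt 1.9, HISAT2 2.2.1, StringTie 2.1.6 and mm10, the paper names STAR and FeatureCounts, and which chain made the tables is not settled. The annotation release is not given in the sources used here. The log2 ratio of (FPKM + 1) was the main measure, with a threshold of 2-fold and exact 95% intervals from the counts. With 1 library per condition no test was run. Python 3.11.15, numpy 2.4.6, scipy 1.17.1 and pandas 2.3.3 were used. Positions and shared 31-base words came from GENCODE M21, which holds 99.7% of the listed genes. Named were the 9 genes, Tgfbr3, further complement genes that reached an FPKM of 1 in a library, listed factors and markers, copies, and neighbors within 50 kb. The low genes C3ar1, C5ar1, Cfi and Mbl2 were named outside this rule, after their values were seen. The 9 genes and the lists were chosen with earlier results of these data known. Some listed genes are not reported here. The calculations were tested on simulated data.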

Additional observations from a re-analysis of the deposited data

How the results depend on the processing

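The 3 complement genes at least 2-fold higher remained C2, C4b and Cfb with a pseudocount of 0.1, by the plain ratio, centred, with FPKM rescaled to a common sum, by CPM of the counts, with the trends over GC content or exon length removed, and at a threshold of 1.5-fold. At 1.5-fold, 1 of the 9 genes, C3, was lower in place of 0. The median log2 ratio of the 9 genes was 0.00 when centred. The share of all genes at least 2-fold higher, 3.14%, was 5.75% with a pseudocount of 0.1, 6.59% by the plain ratio, 5.87% with FPKM rescaled to a common sum, 1.60% over all genes with a value above 0 and 13.3% at 1.5-fold. The share at least 2-fold lower, 1.03%, was 1.71% with a pseudocount of 0.1, 1.85% by the plain ratio, 1.63% when centred, 0.536% over all genes with a value above 0 and 4.91% at 1.5-fold. The median ratio of genes ran from 0.45 in the lowest of 20 bins of GC content to −0.25 in the highest, and the cause was not tested. No paired analysis was possible because each condition has 1 library, and for the same reason no library could be left out. Counting error was at most 0.10 on either side of a log2 ratio of the 9 genes, while the spread between cultures is unknown.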

Other observations

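Counts near 0 did not spread evenly. In the library labelled TGFBR3 OE, 458 genes had 3 counts, 913 had 4 and 323 had 5, and in the library labelled control 416, 930 and 271 genes did. The same held at 8 counts, with 405 and 398 genes, beside 280 and 260 genes at 7 and 197 and 157 genes at 9. Beyond this, 97 genes were listed at 0 in the library labelled TGFBR3 OE with at least 20 counts in the library labelled control, and 136 genes were the other way. Among the complement genes this touches C1qb, with 20 and 0 counts, and Cfi, with 0 and 21, and Mbl2, with 21 and 0. The 9 genes, with at least 533 counts each, lie far above this range.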
